A study of Mus musculus with 6 samples.

Results

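Integrins are the main receptors by which cells hold on to the extracellular matrix, and laminins are the cross-shaped glycoproteins from which basement membranes are assembled. An integrin reaches the cell surface only as a pair of 1 α and 1 β chain, and a laminin is secreted as a trimer of an α, a β and a γ chain, so each gene described here makes a part that needs its partners. The ovarian surface epithelium, the single cell layer that covers the ovary, rests on a basement membrane and binds it through integrins. The chains were taken from the array table by gene symbol (the numbered and lettered integrin α chains, the β chains from *Itgb1* to *Itgb8*, and the numbered laminin α, β and γ chains), without regard to any measured value. This gave 36 of the 20405 genes, namely 18 integrin α chains, 8 integrin β chains and 10 laminin chains. The laminin β1 gene is written *Lamb1-1* in the table (*Lamb1* in RefSeq) and so falls outside that choice; its values are given below only as those of a partner.

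RNA was profiled by microarray (Affymetrix Mouse Gene ST) from M0505 cells (3 arrays), a line of ovarian surface epithelial cells from FVB/N mice studied at early passage, and of STOSE cells (3 arrays), the line that arose when M0505 cells transformed spontaneously during long-term passage. The labels name no transgene or treatment for either line, both were grown in the same medium with serum and EGF, and each is represented by a single line, so the comparison asks how expression in the transformed line differs from that in its parent. The labels call the 3 samples of each line biological replicates, and nothing states whether they came from separate cultures, so p-values measure the spread between these samples. The unit throughout is the log2 robust multi-array average (RMA) value, on which 1 unit is a 2-fold difference, and "log2 change" means the STOSE mean minus the M0505 mean. Values of different genes are not compared, since each probe set has its own brightness.

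A gene was called changed at a limma adjusted p under 0.05 over all 20405 genes and a fold of at least 2, which held for 12.5% of all genes (4.9% higher and 7.59% lower in STOSE cells). With every array centred on its median the split over all genes moved from 1000 higher and 1548 lower to 1466 higher and 1177 lower, because centring adds 0.20 to every log2 change. A chain is said to be above background where its mean exceeded a log2 value of 4.74, the 95th percentile of 1134 probe sets of olfactory receptor genes. Of the ovarian surface epithelium markers 10 were measured, of which *Krt19*, *Krt8* and *Krt7* were called lower and none higher in STOSE cells, and the range over arrays of the mean log2 value of these markers was 10.87 to 10.91 in M0505 and 9.31 to 9.45 in STOSE cells. *Wt1*, *Msln* and *Upk3b*, which mark this epithelium, read 11.39, 11.13 and 12.25 in M0505 and 10.76, 10.52 and 11.91 in STOSE cells. Their log2 changes of −0.63, −0.61 and −0.34 (limma adjusted p = 1.96e-05, 0.00127 and 0.00103) were each under 2-fold. With no fold threshold, 9 of the 10 markers were lower in STOSE cells and 0 higher, beside 24.8% and 31.6% of all genes. The median log2 change of the list was −0.74, or −0.54 after centring, where 2 markers were called lower.

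Of the 36 chains, 27 were above background in at least 1 line (72.3% of all genes were), and 8 were called changed, which is 22.2%. *Itgb3* and *Itgb7* were higher in STOSE cells, and *Lama1*, *Itgb8*, *Itgb5*, *Lamb2*, *Lama4* and *Itga7* were lower. By family, 4 of 8 integrin β chains, 1 of 18 integrin α chains and 3 of 10 laminin chains were called, against the 12.5% of all genes; whether these shares differ was not tested. The median log2 change of the 36 chains was 0.07 beside 0.08 for all genes. The arrays of the lines did not overlap in 22 chains (61.1%), near the 64.6% of all genes, so that separation alone says little about a chain. The SD of 3 arrays ranged from 0.01 to 0.32 in M0505 cells and from 0.01 to 0.27 in STOSE cells over the chains. All 8 calls were kept with each array left out in turn and after centring. Under limma's treat test, which asks for a change larger than 2-fold, *Itgb3*, *Lama1*, *Itgb8*, *Itgb5* and *Lamb2* were kept and *Lama4*, *Itga7* and *Itgb7* were not.

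**Figure D1:**
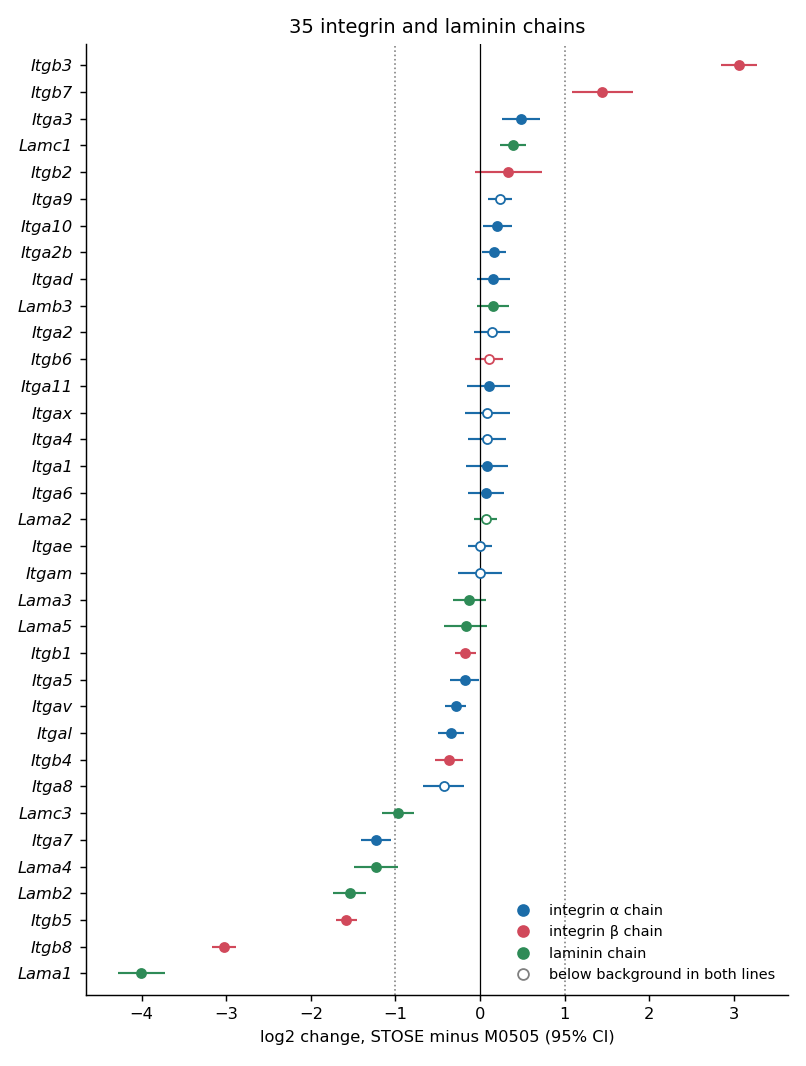
Log2 change (STOSE minus M0505) of 35 of the 36 integrin and laminin chains on the x axis, with 95% confidence intervals from limma. Dotted lines mark a 2-fold difference and open circles mark chains below background in both lines. 6 chains lie beyond the dotted line on the left and 2, *Itgb7* and *Itgb3*, beyond that on the right, while most others lie close to 0.

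Of the start regions of the called chains, those of the β chain genes *Itgb8*, *Itgb5* and *Itgb7* are shown, as β chains called in opposite directions. None is shown for *Itgb3*. The sequences are the 250 bases before the gene's start in RefSeq (GRCm38.p6), 5′ to 3′ on the gene's strand, with GC boxes in capitals. *Itgb8* is at chr12:119238277-119238526 (minus strand), *Itgb5* at chr16:33829415-33829664 (plus strand) and *Itgb7* at chr15:102231936-102232185 (minus strand).
Itgb8: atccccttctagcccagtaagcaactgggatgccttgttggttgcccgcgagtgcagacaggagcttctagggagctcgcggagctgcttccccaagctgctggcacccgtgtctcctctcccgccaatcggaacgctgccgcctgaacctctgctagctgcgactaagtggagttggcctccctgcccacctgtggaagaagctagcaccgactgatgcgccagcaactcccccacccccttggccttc
Itgb5: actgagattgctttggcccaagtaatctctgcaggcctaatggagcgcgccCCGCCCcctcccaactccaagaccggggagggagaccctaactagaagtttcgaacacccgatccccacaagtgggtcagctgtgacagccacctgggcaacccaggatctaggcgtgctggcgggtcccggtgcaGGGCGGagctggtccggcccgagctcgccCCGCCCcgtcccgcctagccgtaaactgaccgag
Itgb7: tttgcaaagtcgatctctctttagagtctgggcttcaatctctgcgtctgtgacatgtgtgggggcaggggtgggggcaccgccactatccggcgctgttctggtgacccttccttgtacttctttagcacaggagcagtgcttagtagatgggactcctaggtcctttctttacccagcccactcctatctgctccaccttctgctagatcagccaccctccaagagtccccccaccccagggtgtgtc

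The letters GGGCGG (a GC box, searched on both strands) were found in *Itgb5* only, at 3 places, starting 199, 63 and 34 bases before the start. They are present in 32.7% of the 32851 windows of this length. The letters TGANTCA (AP-1) and GGAATG (TEAD), which are in 6.75% and 12.6% of windows, were in none of the 3 sequences. GC content was 62.4% in *Itgb8*, 65.2% in *Itgb5* and 56% in *Itgb7*, with 12, 18 and 5 CG dinucleotides, beside medians of 52.4% and 6 over all windows. Of the 36 chains, 22 had an entry among these windows, of which 7 held the GC box, 3 the TEAD letters and 1 the AP-1 letters.

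The αv chain (*Itgav*, chromosome 2) pairs with more β chains than most α chains and binds RGD-containing ligands such as vitronectin, fibronectin and latent TGF-β. Its β partners *Itgb3*, *Itgb5* and *Itgb8* were called changed, 1 higher and 2 lower, while *Itgav* was not. *Itgb3* (chromosome 11), whose product pairs with αv in many cell types and with the platelet chain αIIb, had log2 values of 4.84, 5.16 and 5.10 on the M0505 arrays and 8.07, 8.15 and 8.06 on the STOSE arrays. Every STOSE array was higher than every M0505 array, and the M0505 arrays lay close to the background value of 4.74. The rise was 8.34-fold (log2 change 3.06, standard error 0.09, limma adjusted p = 5.03e-08). Leaving out single arrays gave rises between 7.79-fold and 8.72-fold.

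*Itgb8* (chromosome 12), a β chain best known for releasing active TGF-β from its latent complex, had log2 values of 9.26, 9.41 and 9.37 in M0505 and 6.29, 6.36 and 6.31 in STOSE cells. The groups did not overlap and the STOSE values remained above background. The fall was 8.15-fold (log2 change −3.03, standard error 0.06, adjusted p = 8.67e-09). *Itgb5* (chromosome 16), a vitronectin receptor chain, read 10.81, 10.84 and 10.80 in M0505 and 9.24, 9.23 and 9.23 in STOSE cells. These arrays were the least variable of all called chains, with an SD of 0.02 in M0505 and 0.01 in STOSE cells, and the fall was 2.99-fold (log2 change −1.58, standard error 0.05, adjusted p = 1.02e-07).

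*Itgav* read 11.12, 11.14 and 11.12 in M0505 cells and 10.82, 10.85 and 10.85 in STOSE cells. Its log2 change of −0.29 (95% confidence interval −0.41 to −0.17, adjusted p = 0.00177) passed the adjusted p but was 1.22-fold, and after centring it was −0.09 (adjusted p = 0.167). The last αv partners differed less. *Itgb1*, the β chain shared by most α chains, read 10.61 and 10.44 on average with a log2 change of −0.18 (95% confidence interval −0.30 to −0.05, adjusted p = 0.0226), which turned to 0.02 after centring. A dimmer probe set of *Itgb1* read 6.45 and 6.72 and differed by 0.27 in the other direction (adjusted p = 0.0576 over all probe sets). *Itgb6*, the epithelial αv partner, was below background in both lines at 3.18 and 3.29.

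**Figure D2:**
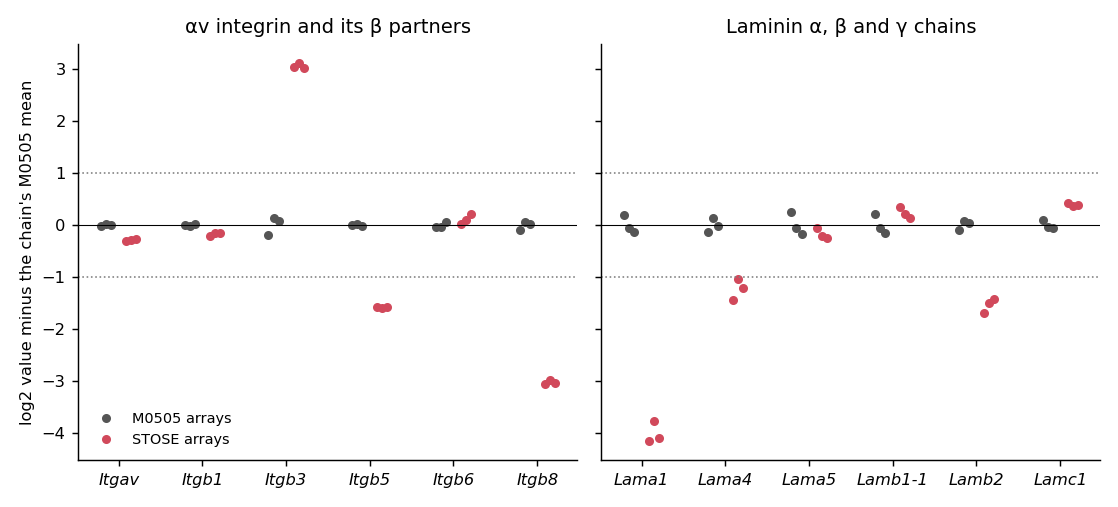
Each point is 1 array, plotted as its log2 value minus the M0505 mean of the same chain (y axis), for αv and its β partners on the left and for laminin chains on the right. Dotted lines mark 2-fold. *Itgav* and *Itgb1* stay well inside the dotted lines while the STOSE arrays of *Itgb3* lie near 3 and those of *Itgb8* near −3.

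The α chains of the laminin receptors were all above background in both lines. *Itga7* (chromosome 10), a laminin receptor chain known from muscle, was the α chain called changed. Its log2 values were 10.44, 10.52 and 10.43 in M0505 and 9.38, 9.21 and 9.11 in STOSE cells, without overlap. The fall was 2.35-fold (log2 change −1.23, standard error 0.08, adjusted p = 3.50e-06) and 1.03 remained on the log2 scale after centring, just past 2-fold. *Itga3*, whose product binds laminins of the epithelial basement membrane, read 9.81, 9.92 and 9.88 in M0505 and 10.57, 10.26 and 10.22 in STOSE cells. Its log2 change of 0.48 (95% confidence interval 0.25 to 0.70, adjusted p = 0.00312) was under 2-fold, as was the 0.68 after centring. *Itga6* read 10.24 ± 0.13 (SD, n = 3) and 10.31 ± 0.13, and the interval of its difference was −0.14 to 0.28. After centring that difference was 0.27 (adjusted p = 0.0211). *Itgb4*, the partner of *Itga6* in hemidesmosomes, had a log2 change of −0.37 (adjusted p = 0.00289), while a second probe set of the gene differed by 0.27 in the opposite direction (adjusted p = 0.0117 over all probe sets), so its direction is unresolved.

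The α chains of the collagen receptors, *Itga1*, *Itga2*, *Itga10* and *Itga11*, had log2 changes between 0.08 and 0.20, and 0 of 4 were called. *Itga2* was below background in both lines. *Itga5*, the fibronectin receptor chain, read 9.95 ± 0.11 and 9.76 ± 0.07 (log2 change −0.18, 95% confidence interval −0.36 to −0.01, adjusted p = 0.0658; 0.02 after centring). *Itga8*, another RGD receptor chain, was below background in both lines at 4.68 and 4.24, as were *Itga4* and *Itga9*. *Itga2b*, the platelet chain that pairs with the product of *Itgb3*, read 5.88 ± 0.03 in M0505 and 6.04 ± 0.08 in STOSE cells, a log2 change of 0.16 with an interval of 0.02 to 0.31, beside the change of 3.06 in *Itgb3*. Of 7 platelet and megakaryocyte markers measured, 0 were called changed (12.5% of all genes were). The range of their mean log2 value was 4.45 to 4.49 in M0505 and 4.57 to 4.61 in STOSE cells. At the adjusted p alone 3 were higher and 1 lower (31.6% and 24.8% of all genes), and 4 were below background in both lines. The median log2 change of the list was 0.17, or 0.37 after centring, beside 0.08 and 0.28 for all genes.

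Integrins with the β2 and β7 chains are found mainly on leukocytes. *Itgb7* (chromosome 15), a lymphocyte homing receptor chain, had log2 values of 4.84, 5.24 and 5.30 on the M0505 arrays and 6.89, 6.39 and 6.44 on the STOSE arrays. The M0505 arrays lay close to background, the lowest STOSE array was higher than the highest M0505 array, and the rise was 2.73-fold (log2 change 1.45, standard error 0.16, adjusted p = 8.14e-05). Single arrays left out gave 2.45-fold to 2.90-fold. Its known α partners *Itga4* and *Itgae* were below background in both lines, at 4.40 and 4.48 for *Itga4* and 4.44 in each line for *Itgae*. *Itgb2* read 6.13, 5.52 and 5.66 in M0505 and 6.39, 5.96 and 5.97 in STOSE cells, which overlap (adjusted p = 0.133). Of its α partners *Itgal* was lower by 0.34 on the log2 scale (adjusted p = 0.00228), from just above background to below it, and by 0.14 after centring, where it no longer passed the adjusted p. *Itgam* and *Itgax* were below background in both lines, and *Itgad* read 4.74 and 4.90.

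A check of leukocyte RNA was made with 19 measured leukocyte markers. None was called higher (1 after centring, after further quantile normalization and without STOSE replicate 1), and 1 (*Cd68*, a lysosomal protein gene) was lower. That is 5.26% called, against 12.5% of all genes. The range of their mean log2 value was 4.68 to 4.72 in M0505 and 4.73 to 4.81 in STOSE cells. That mean includes the fall of *Cd68* (log2 change −2.82). The median log2 change of the list was 0.17, or 0.37 after centring, beside 0.08 and 0.28 for all genes. At the adjusted p alone 6 markers were higher and 1 lower (31.6% and 24.8% of all genes), and 9 were below background in both lines. *Ptprc*, the pan-leukocyte marker CD45, read 3.79 and 3.81, below background in both lines. *Cd14*, a monocyte receptor gene, lay just under the threshold with a log2 change of 0.97 (adjusted p = 0.000105). In RNA of whole cultures, fewer cells that express a gene and less RNA per cell cannot be told apart.

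**Figure D3:**
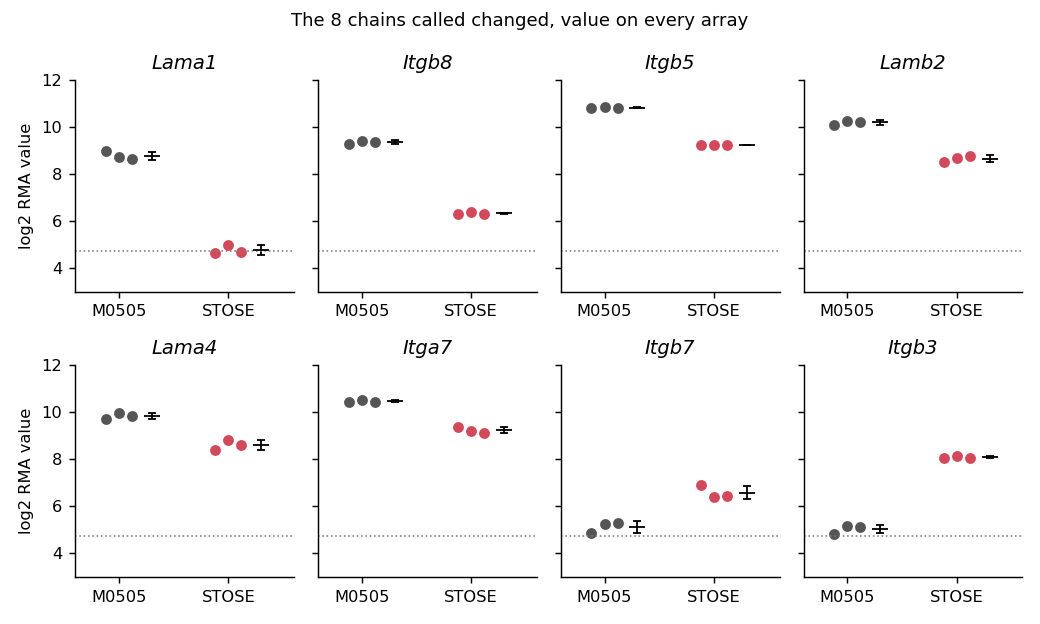
Log2 RMA value (y axis) on every array for the 8 chains called changed, with the 3 M0505 arrays in grey and the 3 STOSE arrays in red; black marks show the mean and SD of 3 arrays and the dotted line the background value of 4.74. In each panel the lines do not overlap; the STOSE arrays of *Lama1* and the M0505 arrays of *Itgb3* and *Itgb7* lie near the dotted line.

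Laminins are named by the numbers of their α, β and γ chains, as in laminin 111. Among the laminin chains the calls fell on *Lama1*, *Lama4* and *Lamb2*, all lower in STOSE cells. *Lama1* (chromosome 17), the α chain of laminin 111 that is known from the early embryo and from some adult epithelia, read 8.97, 8.71 and 8.63 on the M0505 arrays and 4.62, 5.00 and 4.68 on the STOSE arrays. The STOSE arrays lay about the background value of 4.74, 2 of them below it, so the line was at the limit of what the array separates from silent genes. The fall was 16.1-fold (log2 change −4.01, standard error 0.12, adjusted p = 6.02e-08), the largest change among the 36 chains. The log2 change lay between −4.12 and −3.91 when single arrays were left out.

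*Lamb2* (chromosome 9), the β chain of laminins such as 121, 421 and 521, read 10.08, 10.26 and 10.22 in M0505 and 8.49, 8.69 and 8.76 in STOSE cells. All STOSE arrays were lower, by 2.91-fold (log2 change −1.54, standard error 0.09, adjusted p = 1.54e-06). *Lama4* (chromosome 10), an α chain of vascular and mesenchymal basement membranes, read 9.71, 9.96 and 9.82 in M0505 and 8.38, 8.80 and 8.61 in STOSE cells. It was 2.35-fold lower without overlap (log2 change −1.23, standard error 0.11, adjusted p = 2.81e-05). The value of −1.03 after centring left it just past 2-fold. Beside this, 0 of 10 endothelial markers were higher and 2 lower (20% called, against 12.5% of all genes). *Kdr* (VEGF receptor 2) was at least 28.6-fold lower with STOSE arrays below background, and *Esam* was 6.84-fold lower. *Pecam1*, *Cdh5*, *Tek* and *Emcn* differed by less than 2-fold. The mean log2 value of the 10 markers ranged over arrays from 5.54 to 5.62 in M0505 and from 4.75 to 4.78 in STOSE cells. The fall of that mean was mostly that of *Kdr* and *Esam*, as the median log2 change was −0.06 (0.14 after centring). *Pecam1*, *Emcn* and *Erg* were below background in both lines, and *Tek*, at 4.76 and 4.78, lay close to it. Of 10 stromal fibroblast markers *Acta2* was 5.04-fold higher and *Col1a2* 5.48-fold lower (20% called, against 12.5% of all genes). After centring 3 were higher, and 2 were higher without STOSE replicate 3. The mean log2 value of these markers ranged over arrays from 7.27 to 7.33 in M0505 and from 7.40 to 7.45 in STOSE cells. The part of other cell types in the laminin changes was not tested. *Lamc3* (chromosome 2) lay just inside the fold threshold, at 7.13, 7.09 and 7.18 in M0505 and 6.01, 6.16 and 6.30 in STOSE cells. Its log2 change of −0.97 (95% confidence interval −1.16 to −0.79, adjusted p = 1.70e-05) is 1.96-fold, and without STOSE replicate 3 it was −1.05 and past the threshold.

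*Lamb2* shares trimers 121 and 421 with *Lama1* and *Lama4*, and all of these chains were called lower. *Lamc1*, *Lamb1-1* and *Lama5*, which share listed trimers with them, were not. *Lamc1* (chromosome 1), the γ chain of most laminins, read 10.20, 10.05 and 10.03 in M0505 and 10.51, 10.46 and 10.47 in STOSE cells. Its log2 change of 0.39 (95% confidence interval 0.24 to 0.54, adjusted p = 0.000993) was under 2-fold, as was the 0.59 after centring. *Lamb1-1* read 9.53, 9.27 and 9.16 in M0505 and 9.68, 9.54 and 9.46 in STOSE cells, which overlap, with a log2 change of 0.24 (standard error 0.10, adjusted p = 0.0853 over all probe sets). *Lama5*, an α chain of many adult epithelial basement membranes, read 10.26, 9.96 and 9.84 in M0505 and 9.97, 9.81 and 9.77 in STOSE cells, and the interval of its difference was −0.42 to 0.09 around −0.17, which turned to 0.03 after centring. *Lama3* and *Lamb3*, chains of epithelial anchoring laminins, had log2 changes of −0.13 (0.07 after centring) and 0.15, and neither was called. *Lama2*, the α chain of muscle and nerve laminins, was below background in both lines at 4.22 and 4.28.

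Set out by known pairs, 15 of 24 integrin heterodimers had both chains above background in M0505 cells and 14 in STOSE cells, 14 of them in both lines. The pair that differed was *Itgal* with *Itgb2*, as *Itgal* read 4.90 in M0505 and 4.56 in STOSE cells. *Itgad* counted as above background in M0505 cells by a mean of 4.742 against 4.7415. Of the 11 laminin trimers considered, all chains were above background for 9 in M0505 and 6 in STOSE cells; the 3 that differed are those with *Lama3*, whose mean of 4.81 in M0505 and 4.68 in STOSE cells passed from just above to just below the background value. The trimers of *Lama1* counted as above background in STOSE cells by a mean of 4.76 against 4.74. Such counts give the presence of RNA and not of assembled receptors or trimers.

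Of the 28 chains not called, 27 had a 95% confidence interval wholly inside 2-fold in both directions, *Lamc3* being the exception. Their log2 changes ran from −0.97 to 0.48. At the adjusted p alone, 18 chains passed (50% of 36, against 56.5% of all genes), 6 higher (31.6% of all genes) and 12 lower (24.8%), and after centring 20 were higher and 7 lower (55.6% and 19.4% of the chains, beside 62.4% and 18.6% of all genes), so the direction of the changes under 2-fold depends on the scaling.

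Genes that work with these chains were read from lists. Of 32 integrin activators and adhesion adaptors, 3 were higher and 2 lower in STOSE cells, which is 15.6% called against 12.5% of all genes, and the median log2 change was 0.01 (0.21 after centring, beside 0.28 for all genes). *Apbb1ip*, whose product RIAM brings talin to the membrane, rose from 4.34 ± 0.13 to 8.30 ± 0.13 (SD, n = 3), at least 11.8-fold higher (adjusted p = 1.33e-08), since the M0505 arrays were below background. Such a bound sets each dim array at the background value of 4.74 before the means are compared. *Lims2* (PINCH2) rose 2.45-fold, while *Kank1* fell 2.77-fold and *Tns1* (tensin 1) fell 2.13-fold. The main activators *Tln1* (talin 1), *Fermt2* (kindlin 2) and *Ilk* had log2 changes of −0.09, −0.02 and 0.08, none of which passed the adjusted p. After centring 5 adaptors were higher and 1 lower, with the mean of the probe sets 1 was lower, and with every probe set tested on its own 6 probe sets were lower.

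Of 19 adhesion kinases and scaffolds, 3 were higher and 2 lower (26.3% called), with a median log2 change of 0.06. *Lyn*, a Src family kinase, rose from 4.44 ± 0.27, below background, to 9.30 ± 0.21, at least 23.6-fold higher (adjusted p = 6.57e-08). *Elmo1*, which works with DOCK1 in Rac activation, rose 3.95-fold and the Src family kinase *Fyn* 2.72-fold. *Ptk2b* (PYK2) fell from 10.90 ± 0.05 to 8.88 ± 0.13, which is 4.06-fold (adjusted p = 2.16e-07), and its relative *Ptk2* (focal adhesion kinase) had a log2 change of 0.36 (adjusted p = 0.00438), under 2-fold. *Nedd9*, a docking protein of these kinases, was 2.07-fold lower, and after centring 1 gene of the list was lower.

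Of 29 extracellular integrin ligands, 5 were higher and 1 lower (20.7% called), with a median of 0.17. The largest rises were those of *Thbs1* (thrombospondin 1), from 8.21 ± 0.11 to 11.59 ± 0.13 and 10.4-fold (adjusted p = 2.29e-08), of *Tnc* (tenascin C), from 5.55 ± 0.20 to 8.93 ± 0.38 and 10.4-fold (adjusted p = 1.34e-06), and of *Ltbp1*, which holds latent TGF-β in the matrix, from 5.18 ± 0.11 to 8.11 ± 0.44 and 7.62-fold (adjusted p = 3.97e-06). *Tgfb3* fell from 11.44 ± 0.12 to 9.62 ± 0.12, which is 3.52-fold (adjusted p = 7.37e-07). *Fn1* (fibronectin) differed by 0.38 on the log2 scale (adjusted p = 0.00161), under 2-fold, and *Vtn* (vitronectin) was below background in both lines.

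Of 13 cell surface ligands, 5 were lower and 2 higher (53.8% called), with a median log2 change of −0.43, or −0.23 after centring. *Icam1*, a ligand of β2 integrins, fell from 9.55 ± 0.13 to 5.85 ± 0.14, which is 12.9-fold (adjusted p = 2.21e-08), *Jam3* fell 4.58-fold and *Icam2* fell 4.08-fold. *Thy1* rose 2.81-fold and *Adam15* rose 2.30-fold. Without the dimmest 50% of genes 1 ligand, *Icam1*, was lower, since the others called lower were filtered out as dim.

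Of 20 basement membrane partners of laminin, 3 were lower and 0 higher (15% called), with a median of −0.14 that was 0.06 after centring, where 1 gene was higher. *Fras1*, a matrix protein of epithelial basement membranes, fell from 7.77 ± 0.58 to 4.84 ± 0.08, which is 7.65-fold (adjusted p = 1.58e-05), its STOSE arrays lying close to background. *Ntn4* (netrin 4), which binds laminin γ chains, fell 2.69-fold, and *Col4a2* fell 2.15-fold. Its partner in the collagen IV trimer, *Col4a1*, was lower by 1.93-fold, under the threshold. Of 16 measured genes of other laminin receptors and hemidesmosomes, 1 was higher and 2 were lower (18.8% called). *Sgce* (ε-sarcoglycan) fell from 10.24 ± 0.29 to 5.25 ± 0.53, which is 31.7-fold (adjusted p = 9.71e-07), with 1 STOSE array below background. *Bcam*, a receptor of the laminin α5 chain, was 2.06-fold lower. *Sgcd* (δ-sarcoglycan) was at least 1.83-fold higher, its M0505 mean of 3.97 being below background. After centring 2 were higher and 1 lower, and without STOSE replicate 1 a single gene was lower. *Dag1* (dystroglycan) differed by −0.75 on the log2 scale (adjusted p = 2.32e-05), under 2-fold. Of 12 integrin lateral partners, 1 was called higher and 0 lower (8.33% called, against 12.5% of all genes). The one called was the tetraspanin *Cd9*, which rose 2.88-fold. At the adjusted p alone, 2 partners were higher and 8 lower (31.6% and 24.8% of all genes). The median log2 change of the list was −0.28, or −0.08 after centring. *Cd151*, the tetraspanin that associates with laminin-binding integrins, differed by −0.39 (adjusted p = 0.00108).

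**Figure D4:**
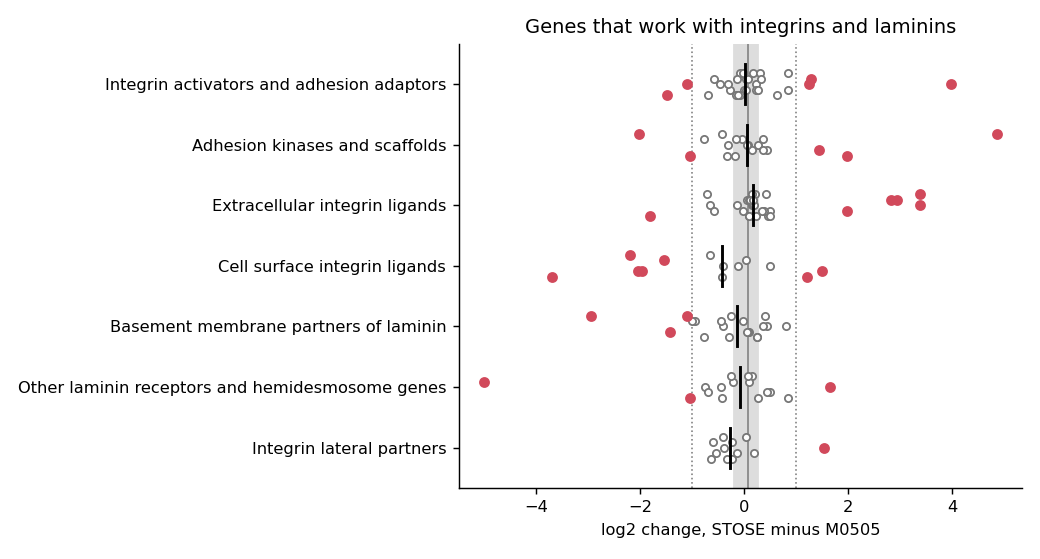
Log2 change (STOSE minus M0505, x axis) of each gene of 7 lists of genes that work with integrins and laminins; red points were called changed, open points were not, black bars are list medians, and the grey band is the middle 50% of all 20405 genes around their median. Each list has a median within 0.5 of 0, with single genes such as *Lyn*, *Apbb1ip*, *Icam1* and *Sgce* far outside the band.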

How the data were processed

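Total RNA of M0505 and STOSE cells was hybridized to Mouse Gene 1.0 ST arrays. The authors deposited log2 RMA values (Affymetrix Expression Console, per the labels), background corrected and quantile normalized over the 6 arrays, 1 column per array, with their line means and linear fold changes, which were not used. Version, annotation release and genome build are not given in the sources used here. Of 28944 probe sets, 23530 carried a symbol; the probe set with the highest mean was kept for each of 20405 genes. Arrays carry no read depth; their number, 3 per line, limits the precision. Lines were compared with limma 3.58.1 (lmFit, eBayes, R 4.3.3), no covariate, Benjamini-Hochberg adjustment over all genes. On simulated data for this comparison, with 200 of 20405 genes changed, 99% were recovered with 0 false calls. In the measured data 12.5% of genes were called, and every shift given to those 200 genes was larger than 2-fold. How well genes near the 2-fold threshold are recovered is therefore not shown. An exact permutation test of 3 against 3 cannot go below p = 0.1 (two-sided). All chains were accounted for, those called in full, and at most 3 called genes per list and direction were named; other list genes were chosen after their values were seen. The chains, lists, motifs and background measure were chosen with earlier results of these data known. Chromosomes and sequences are RefSeq GRCm38.p6, matched by symbol or synonym. Alternatives covered scaling, dim-gene filters, probe set summary, the methods' t-test, limma variants, the fold threshold, the replicate block and leaving out each array. The single values of 1 chain and 1 adaptor gene are not reported here; both are included in the counts.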

Additional observations from a re-analysis of the deposited data

How the results depend on the processing

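The 8 calls among the chains were kept under further quantile normalization, centring, the filter on the dimmest 25% of genes, both treatments of probe sets, the methods' t-test (adjusted or not), limma with trend, the replicate block and each array left out. The chains called became 1 higher without the dimmest 50% of genes (*Itgb7* was filtered out), 1 higher with treat, 6 higher and 12 lower with no fold threshold, and 1 higher and 2 lower at 4-fold. Of all genes tested, 7.6% were higher without the dimmest 50%, 2.47% higher and 4.87% lower with treat, 31.6% and 24.8% with no fold threshold, and 0.912% and 2.49% at 4-fold; the fewer genes tested and the other thresholds set these shares. Centring moved the calls over all genes from 39.2% to 55.5% higher. With each array left out, 2 chains were higher and 6 to 7 lower, and 4.68% to 5.22% of all genes were higher and 7.39% to 7.8% lower. Signs turned for chains that were not called. Centring, which adds 0.20 to each log2 change, gave 0.0164 for *Itga5*, 0.0249 for *Itgb1*, 0.0312 for *Lama5*, 0.0738 for *Lama3*, 0.194 for *Itgam* and 0.197 for *Itgae*. Quantile normalization gave −0.0182 for *Lama2* and −0.00601 for *Itga4*, and averaging the probe sets of *Itgb1* gave 0.0450. With an array left out, *Itgam* ran from −0.0935 to 0.118, *Itgae* from −0.0319 to 0.0326, *Itgax* from −0.0228 to 0.174 and *Itga6* from −0.00439 to 0.136; the cause of these last moves was not tested. With the replicate block 4.91% of all genes were higher and 7.59% lower, and 2 chains higher and 6 lower. The deviations of same-numbered arrays correlated at 0.256, 0.0421 and 0.249, and STOSE replicate 2 correlated best with another number (0.119), so the numbers were not taken as pairs. Values near 4.74 are close to background, which limits *Lama1* in STOSE and *Itgb3* and *Itgb7* in M0505 cells.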
